A study of Mus musculus with 3 samples.

Results

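The genes described here are 49 interferon-stimulated genes and sensors of foreign nucleic acid, taken by name from the probe annotation of a mouse expression array. All 49 were on the array, as 67 probes among 30458 gene names, and 38 of them gave enough signal to be tested, out of 15426 genes tested in all. RNA came from mouse embryoid bodies, balls of cells in which embryonic stem cells begin to differentiate. Dido3deltaCT mutant embryoid bodies, whose Dido3 protein lacks its C terminus, were set against wild type control embryoid bodies, with 3 samples of each genotype. Both genotypes floated in low attachment plates for 10 days without LIF, the factor that holds embryonic stem cells undifferentiated. The labels call the samples biological replicates without saying whether a genotype is 1 line or several. P-values then measure the spread between these samples, which may be technical.

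Cells sense viral RNA and DNA with dedicated receptors, which activate interferon regulatory factors and so the secretion of interferons. Interferons bind receptors at the cell surface, and through JAK kinases and STAT proteins they switch on a large set of antiviral genes. Type I interferon acts mainly through a complex with Stat2 and Irf9 that binds the interferon-stimulated response element, and interferon gamma acts mainly through the gamma-activated sequence. Pluripotent stem cells are known for a weak interferon response that strengthens as they differentiate, and for a few antiviral genes, Ifitm1 and Ifitm3 among them, that they express without interferon.

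Each of the 3 two-colour arrays carried 1 mutant and 1 wild type sample, and all 3 lay on 1 slide with 1 scan date. Mutant RNA was labelled with Cy3 on replicates 1 and 3 and with Cy5 on replicate 2, so the dyes were not swapped equally and each mean ratio keeps part of any dye effect. Mutant channels had 46.5% to 62.5% of spots well above background, and wild type channels 48.5% to 74.4%. Levels below are normalized log2 signals of 1 channel. They compare samples for 1 probe, and not 1 gene with another. Ratios are log2 values of mutant over wild type per array, and means carry the SE of a limma fit over the 3 arrays, whose small number limits the precision. In whole embryoid bodies, more cells that express a gene cannot be told apart from more RNA per cell.

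Members of several antiviral families had more signal in the mutant, but no member passed the test. At an adjusted p under 0.05 (limma, Benjamini-Hochberg over 15426 genes), 0 of 38 members were higher in the mutant, where 0.207% of all genes were, and 0 were lower, where 0.0908% were. The smallest adjusted p was 0.0502, for Oasl2. At an unadjusted p under 0.05, 17 members were higher, against 11.4% of all genes, and 2 were lower, against 11.3%. The ratio was above 0 on all 3 arrays for 20 members, against 21.7% of all genes, and below 0 on all 3 for 6, against 22.7%. Of the 38, 15 had a mean at least 2-fold higher in the mutant with all 3 ratios above 0, a share that was 7.0% over all genes. Only B2m was at least 2-fold lower with all 3 ratios below 0, against 6.70% of all genes. The mean was above 0 for 29 members, against 52.4% of all genes. The median of the members was 0.65, with 0.50, 0.79 and 0.74 on replicates 1, 2 and 3, while the median of all genes was 0.03.

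These counts cover the members that were bright enough, and brightness itself differed between the genotypes. Of the 38, 26 were well above background on all 3 arrays in both genotypes, against 85.2% of all genes. All 3 arrays were reached only in the mutant by 9, against 5.7% (Dhx58, Ifi35, Ifih1, Oas1a, Oas2, Oasl1, Rsad2, Usp18 and Zbp1). Only in the wild type they were reached by 3, against 9.15% (Eif2ak2, Mx2 and Tap1). In the wild type, Zbp1 was well above background on 1 array and the rest of those 9 on 2. A member admitted through the mutant alone leans towards a higher value there, so the counts describe the list and support nothing beyond it. Calls also turned on 1 array. Without replicate 2, the array with the dyes swapped, limma called 17 members higher in the mutant, against 25.7% of all genes, and 3 lower, against 21.7%. Without replicate 1 or replicate 3 it called 0 members. Replicates 1 and 3 have the same dye orientation, so that fit cannot separate the genotype from the dye. A fit with a dye term called 18 members higher, against 15.9% of all genes, and 3 lower, against 14.9%. Its error also comes from replicates 1 and 3 alone.

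**Figure D1:**
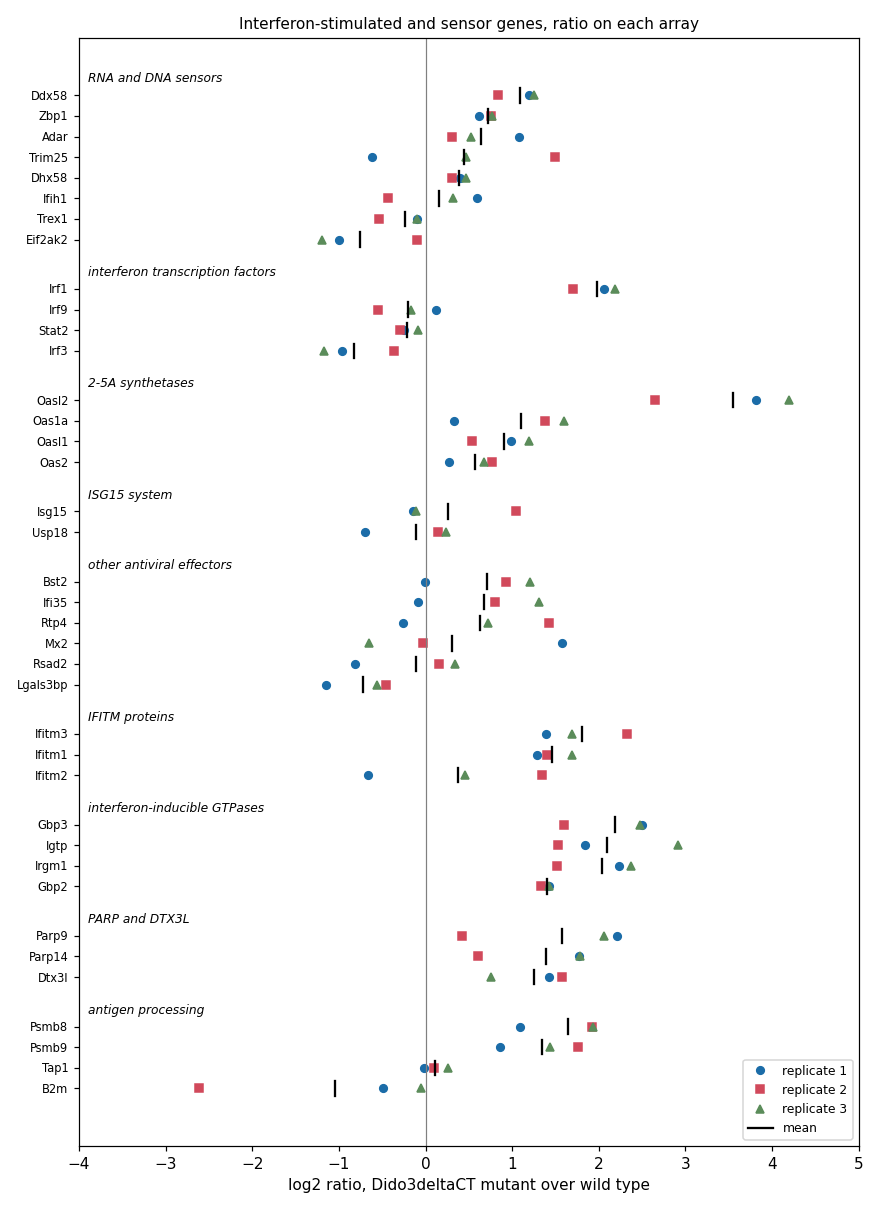
Log2 ratio of mutant over wild type for the 38 tested genes, grouped by role, with 1 symbol per array (replicate 1 circles, replicate 2 squares, replicate 3 triangles) and a bar at the mean. All points of the interferon-inducible GTPases and of the PARP and DTX3L genes lie right of 0, while those of the transcription factors other than Irf1 lie near or left of it.

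The promoters of the members were searched for both response elements, in RefSeq windows from 250 bases before to 50 bases after each gene's start (assembly GRCm38.p6). On both strands, the interferon-stimulated response element was written as TTTC and TTTC with any 2 bases between them, and the gamma-activated sequence as TTC and GAA with any 3 bases between them. The motifs can overlap. A window was found for 40 members. Of these, 19 (47.5%) held the first motif, against 1079 of 27025 genes (3.99%), and 10 (25%) held the second, against 2582 genes (9.55%). Among the 13 members with a window whose mean was at least 2-fold above the wild type, with all 3 ratios above 0, 7 (53.8%) held the response element and 5 (38.5%) the gamma-activated sequence. The other 27 include members too dim to be tested, which have no ratio (Cmpk2, Ifi44, Ifi47, Ifit1, Ifit2, Ifit3, Irf7, Oas1g, Oas3 and Sp100). Among these 27, 12 (44.4%) held the first and 5 (18.5%) the second. The difference between these shares was not tested. Matches are letters in a window and were not tested as binding sites. The stretches printed for single genes run from 120 bases before the start to the base before it, with matches in capitals, and overlapping matches run together. They were picked after values had been seen, from genes with a mean of at least 2-fold and from genes with a lower mean or no test.

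Among the transcription factors, Irf1 stood apart from Irf3, Irf9 and Stat2. Irf1 activates many interferon-stimulated and antigen-presentation genes and is itself induced through the gamma-activated sequence. Its signal (probe at chr11:53590746-53590805, mm9) was 13.47, 12.57 and 13.48 in mutant replicates 1, 2 and 3, against 11.41, 10.87 and 11.29 in the wild type. Every mutant sample lay above every wild type sample, and the mean ratio of 1.98 ± 0.25 (3.96-fold, adjusted p = 0.0543, limma) did not pass the threshold. A further Irf1 probe stayed at background throughout. Irf3, which sensors activate to induce interferon beta, had 10.46, 11.61 and 11.09 in mutant samples and 11.42, 11.97 and 12.26 in wild type samples. Its groups overlapped, and its ratio was −0.83 ± 0.28 (adjusted p = 0.172). Stat2 and Irf9, partners in the type I interferon complex, had ratios of −0.21 and −0.20. Irf7, which amplifies interferon alpha, stayed at background on all arrays of both genotypes. The Irf1 promoter holds 1 gamma-activated sequence and no response element (chr11:53769894-53770013, GRCm38.p6, plus strand).
Irf1: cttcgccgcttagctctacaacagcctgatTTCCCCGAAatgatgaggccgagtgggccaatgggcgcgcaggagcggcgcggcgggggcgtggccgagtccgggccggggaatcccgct

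All 8 sensors and regulators of sensing were measured, and their median ratio was 0.42. That median includes Adar and Trim25, whose probes raise doubts described below. Ddx58, which encodes the RNA helicase RIG-I, was the only one at least 2-fold apart with 1 sign on all arrays. It had 12.05, 11.03 and 11.44 in mutant samples and 10.86, 10.19 and 10.19 in wild type samples. The groups did not overlap, and the ratio was 1.09 ± 0.24 (2.13-fold, adjusted p = 0.0916). The Ddx58 ratio was 0.789 with all spots kept in the background model and 0.817 with the authors' deposited table. The related helicases stood closer to 0, with 0.16 for Ifih1 (MDA5) and 0.39 for Dhx58 (LGP2). Zbp1, a sensor of Z-form nucleic acid that can start necroptosis, had close ratios of 0.62, 0.76 and 0.77 on the 3 arrays. It was well above background on 3 mutant arrays and 1 wild type array, and its adjusted p was 0.165. Agilent's processed signals gave a larger ratio for Zbp1, 2.07 (adjusted p = 0.0460), and for Dhx58, 1.33 (adjusted p = 0.112). Eif2ak2, the kinase PKR that halts translation on double-stranded RNA, had a ratio of −0.76 (adjusted p = 0.237), and Trex1, an exonuclease that clears DNA from the cytosol, had −0.24. Adar edits adenosine to inosine in double-stranded RNA and so keeps the cell's own RNA from MDA5. Its probes went opposite ways. The brighter gave 1.08, 0.30 and 0.53 on replicates 1, 2 and 3, and the other −1.18, −1.02 and −0.83, so no direction is given for the gene.

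The value of Trim25, a ubiquitin ligase of the RIG-I pathway, came from a repeat-bearing probe. This brighter of its probes ends in an unbroken run of 31 bases of GT. Across the array, 74 probes that entered the analysis hold a GT run of at least 20 bases on either strand, and their median ratios were −0.54, 1.39 and 0.38 on replicates 1, 2 and 3. Trim25 itself gave −0.61, 1.49 and 0.47. The probes of Sp110 and Ifitm7, which hold GT runs of 37 and 30 bases, gave −0.64, 1.44 and 0.40, and −0.54, 1.43 and 0.51. A probe of Itgam, a macrophage and leukocyte marker used below, holds a run of 20 bases and gave 0.27, −0.15 and 0.30, another pattern. All other probes had medians of −0.01, −0.04 and 0.02. The second Trim25 probe holds no such run and gave 0.17, 0.77 and 0.83, a mean of 0.59 with an adjusted p of 0.281 (limma over all probes). The search was made after the values of Trim25 had been seen. The last 30 bases of both probes are shown with the repeat in capitals.
Trim25 repeat probe: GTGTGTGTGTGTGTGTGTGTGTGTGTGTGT
Trim25 second probe: tctttatttgactgcttctgattctttttc

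The 2-5A synthetase family held the member with the highest ratio. These enzymes make short oligoadenylates that activate RNase L, which degrades RNA in infected cells. Oasl2 (probe at chr5:115362168-115362227, mm9) had 12.46, 10.40 and 12.15 in mutant samples and 8.66, 7.75 and 7.95 in wild type samples. The lowest mutant sample lay above the highest wild type sample, and the ratio was 3.55 ± 0.37 (11.7-fold, adjusted p = 0.0502, limma), just outside the threshold. It ranked 12 among all tested genes by mean ratio. Leaving out 1 array at a time moved the mean between 3.23 and 4.00, and Oasl2 was called without replicate 2, with the dye term, with the channels unpaired, after scaling between arrays, with Agilent's processed signals and with all probes of a gene averaged. It was not called in the other settings, among them all spots kept in the background model, which gave 2.51 (adjusted p = 0.276), and the authors' deposited table, which gave 2.98 (adjusted p = 0.123). Oas1a had 8.63, 8.37 and 9.34 in mutant samples and 8.31, 6.99 and 7.74 in wild type samples. Its groups did not overlap, with a ratio of 1.10 ± 0.34 (adjusted p = 0.151). The probe behind these levels is listed for transcripts of both Oas1a and Oas1g, so signals of these close paralogs cannot be told apart there. The other Oas1a probe, listed for Oas1a alone, gave 0.94. Oasl1, which in mouse lacks synthetase activity, had a ratio of 0.91, and Oas2 had 0.57. With Agilent's processed signals these ratios were larger, 1.69 for Oas1a, 1.5 for Oasl1 and 1.41 for Oas2, and none was called. With all spots kept in the background model they were smaller, 0.608, 0.531 and 0.356. The authors' deposited table gave 0.64, 0.487 and 0.317 in the same order. Oas3 was well above background on 1 array of each genotype, and Oas1g on none. No match to either motif was found in the Oasl2 window. The Oas1a stretch holds overlapping response elements next to the start and a gamma-activated sequence further out (chr5:120907526-120907645, GRCm38.p6, minus strand).
Oas1a: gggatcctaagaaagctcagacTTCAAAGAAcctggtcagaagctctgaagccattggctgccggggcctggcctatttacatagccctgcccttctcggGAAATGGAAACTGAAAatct

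The interferon-inducible GTPases had the highest median ratio of the families, 2.07. They coat and disrupt vacuoles that hold pathogens, and comprise guanylate-binding proteins (Gbp2, Gbp3) and immunity-related GTPases (Irgm1, Igtp, Ifi47). All 4 measured members were at least 2-fold higher on average and above 0 on all arrays, against 7.0% of all genes. All 4 were also higher at an unadjusted p under 0.05 (limma), against 11.4% of all genes, and none passed the adjusted threshold. Gbp3 had 11.16, 9.32 and 10.33 in mutant samples and 8.66, 7.72 and 7.85 in wild type samples. Igtp, read by a probe with 10 spots, had 11.24, 10.23 and 11.40 in mutant samples and 9.40, 8.70 and 8.49 in wild type samples. In both genes the groups were separate, with ratios of 2.19 ± 0.30 (adjusted p = 0.0543) for Gbp3 and 2.09 ± 0.35 (adjusted p = 0.0625) for Igtp. Irgm1, a regulator of other immunity-related GTPases, had 11.22, 8.86 and 10.79 in mutant samples and 8.99, 7.34 and 8.42 in wild type samples. Mutant replicate 2 lay below wild type replicate 1, so the groups overlapped although each array gave a positive ratio, with a mean of 2.04 ± 0.28 (adjusted p = 0.0559). A second Irgm1 probe gave 0.97. Gbp2 had 10.60, 9.79 and 9.06 in mutant samples and 9.17, 8.46 and 7.63 in wild type samples. Its levels also overlapped, but its ratios of 1.42, 1.33 and 1.43 were nearly equal across arrays, and the mean was 1.4 ± 0.23 (adjusted p = 0.0618). With all spots kept in the background model the ratios were smaller, 1.46 for Gbp3, 1.32 for Igtp, 1.37 for Irgm1 and 0.949 for Gbp2. The authors' deposited table gave 1.56 for Gbp3, 1.76 for Igtp, 1.45 for Irgm1 and 0.887 for Gbp2. Gbp2 was thus under 2-fold in both of these settings. Ifi47 was well above background on 2 arrays of each genotype and was not tested. The probes lie on mm9 at chr3:142236032-142236091 (Gbp3), chr3:142300719-142300778 (Gbp2), chr11:48679069-48679128 (Irgm1) and chr11:58020927-58020986 (Igtp). Each of the 4 measured genes holds the response element close to its start, and Igtp also holds a gamma-activated sequence. On GRCm38.p6 the stretches lie at chr3:142620543-142620662 (Gbp2, plus strand), chr3:142559924-142560043 (Gbp3, plus), chr11:48871421-48871540 (Irgm1, minus) and chr11:58199436-58199555 (Igtp, plus).
Gbp2: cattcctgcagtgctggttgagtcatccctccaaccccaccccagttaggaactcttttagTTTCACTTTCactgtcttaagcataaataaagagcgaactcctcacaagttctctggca
Gbp3: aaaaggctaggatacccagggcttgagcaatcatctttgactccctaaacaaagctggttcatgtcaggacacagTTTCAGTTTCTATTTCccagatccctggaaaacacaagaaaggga
Irgm1: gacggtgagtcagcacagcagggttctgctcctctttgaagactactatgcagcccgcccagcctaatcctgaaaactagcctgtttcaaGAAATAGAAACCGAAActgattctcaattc
Igtp: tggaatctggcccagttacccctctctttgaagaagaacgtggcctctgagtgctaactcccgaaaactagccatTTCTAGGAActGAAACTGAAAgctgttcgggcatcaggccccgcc

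IFITM proteins sit in membranes and block the fusion of enveloped viruses, and in mouse Ifitm1 and Ifitm3 are also known from primordial germ cells. Ifitm3 (10 spots, chr7:148195591-148195650, mm9) had 12.68, 12.88 and 13.01 in mutant samples and 11.29, 10.55 and 11.32 in wild type samples. Ifitm1 (chr7:148155659-148155718) had 15.37, 14.79 and 15.18 in mutant samples and 14.08, 13.40 and 13.49 in wild type samples. Both were bright in each genotype with separate groups, and their ratios were 1.81 ± 0.29 (adjusted p = 0.0600) and 1.46 ± 0.24 (adjusted p = 0.0619). The third member, Ifitm2, gave −0.66, 1.35 and 0.46 on replicates 1, 2 and 3, with a mean of 0.38. Its sign thus depended on the array. A further Ifitm1 probe, placed on chromosome 8 of mm9, gave 1.41, but it shares 54 of its 60 bases with the Ifitm1 probe on chromosome 7, so the probes are not independent readings. The last 30 bases of the chromosome 7 probe are printed to show how little separates them, with the bases after the shared run in capitals.
Ifitm1: ctcaataaagtgcacgtgctgtgaCTTTCT

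Parp9 and Dtx3l form a complex that modifies histones and viral proteins, and Parp14 is a related ADP-ribosyltransferase that acts in interferon and interleukin signalling. All 3 genes lie on chromosome 16 of mm9. Parp9 had 10.59, 8.99 and 10.95 in mutant samples and 8.38, 8.56 and 8.90 in wild type samples. Dtx3l had 11.05, 9.59 and 9.44 in mutant samples and 9.64, 8.01 and 8.68 in wild type samples. Parp14 had 9.87, 8.44 and 9.95 in mutant samples and 8.09, 7.83 and 8.17 in wild type samples. The groups were separate for Parp9 and Parp14 and overlapped for Dtx3l. Mean ratios were 1.57 ± 0.43 (adjusted p = 0.124) for Parp9, 1.25 ± 0.28 (adjusted p = 0.0911) for Dtx3l and 1.39 ± 0.34 (adjusted p = 0.104) for Parp14. For Parp9 and Parp14 the dye-swapped replicate 2 gave the lowest ratio, 0.43 and 0.61, while for Dtx3l it gave the highest, 1.57. With all spots kept in the background model the means were smaller, 1 for Parp9, 1.02 for Dtx3l and 0.854 for Parp14. The authors' deposited table gave 1.1 for Parp9, 0.8 for Dtx3l and 0.867 for Parp14.

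In antigen processing, the immunoproteasome subunits Psmb8 and Psmb9 had higher mean ratios than Tap1 and B2m. These subunits replace standard proteasome subunits under interferon, Tap1 carries the resulting peptides into the endoplasmic reticulum, and B2m is the light chain of class I molecules. Psmb8 (chr17:34337771-34337830, mm9) had 8.91, 9.24 and 9.73 in mutant samples and 7.82, 7.32 and 7.81 in wild type samples. Psmb9 (chr17:34319174-34319233) had 8.43, 9.41 and 9.20 in mutant samples and 7.57, 7.65 and 7.76 in wild type samples. The groups were separate in both, with ratios of 1.65 ± 0.29 (adjusted p = 0.0665) and 1.35 ± 0.28 (adjusted p = 0.0815). For Psmb8, keeping all spots in the background model gave 1.06, as did the authors' deposited table. For Psmb9 these settings gave 0.908 and 0.81, both under 2-fold. Tap1, read by a probe with 10 spots, had 6.60, 7.44 and 7.12 in mutant samples and 6.62, 7.34 and 6.87 in wild type samples. These levels were dim and overlapping, well above background on 1 mutant array and 3 wild type arrays. The Tap1 ratio was 0.11 ± 0.24 (adjusted p = 0.804, limma), a value read near background. B2m had 12.73, 12.15 and 13.19 in mutant samples and 13.23, 14.76 and 13.25 in wild type samples. Every mutant sample lay below every wild type sample, with ratios of −0.49, −2.61 and −0.06 and a mean of −1.05 ± 0.55 (adjusted p = 0.326). That mean rests on replicate 2, without which it was −0.27. Psmb9 and Tap1 start from opposite strands of 1 short interval, so these ratios belong to neighbours with a common promoter region. The difference between them was not tested. The 225 bases between the starts hold no match to either motif (chr17:34187331-34187555, GRCm38.p6, plus strand, shown towards Tap1), and the Psmb8 stretch holds a gamma-activated sequence (chr17:34198075-34198194, plus strand).
Psmb9 to Tap1: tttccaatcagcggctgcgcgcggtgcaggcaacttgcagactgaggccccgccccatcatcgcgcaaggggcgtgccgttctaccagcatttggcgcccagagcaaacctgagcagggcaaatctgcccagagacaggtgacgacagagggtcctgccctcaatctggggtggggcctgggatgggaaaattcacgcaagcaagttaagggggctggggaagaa
Psmb8: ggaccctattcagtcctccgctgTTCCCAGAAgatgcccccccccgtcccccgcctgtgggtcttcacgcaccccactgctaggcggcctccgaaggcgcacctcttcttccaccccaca

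**Figure D2:**
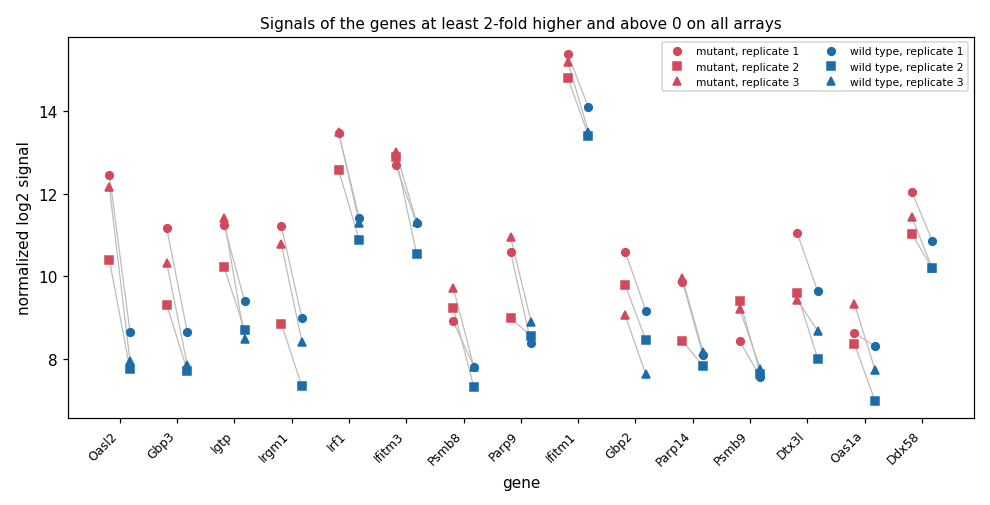
Normalized log2 signal of the 15 genes with a mean mutant excess of 2-fold or more and all 3 ratios above 0. Mutant samples (red, left) are joined to the wild type sample of the same array (blue, right), with 1 symbol per replicate. Each line slopes down to the wild type, while some mutant and wild type points overlap, as for Irgm1 and Gbp2.

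Several genes that commonly mark a type I interferon response were close to 0 or too dim. Isg15, a ubiquitin-like protein that is attached to other proteins, had 9.15, 9.20 and 9.28 in mutant samples and 9.30, 8.15 and 9.40 in wild type samples. Its ratio was 0.26 ± 0.34 (adjusted p = 0.681), and its dimmer second probe gave 1.28, −0.64 and 1.90, a pattern across arrays that runs opposite to the −0.15, 1.05 and −0.11 of the first. Usp18, which removes Isg15 and damps signalling at the type I receptor, had −0.11, and Rsad2 (viperin), which makes a chain-terminating nucleotide, also had −0.11. Mx2, a dynamin-like GTPase, had a mean of 0.30 from 1.58, −0.03 and −0.65. The tetherin gene Bst2 had 0.71, Ifi35 0.67 and Rtp4 0.63, each with a ratio below 0 on replicate 1, and adjusted p-values between 0.278 and 0.395. Lgals3bp, a secreted glycoprotein that binds galectin-3, had −0.72 on each of its probes (adjusted p = 0.203 for the brighter). None of these 8 genes was at least 2-fold apart. Stretches from Isg15 (chr4:156200819-156200938, GRCm38.p6, minus strand), Rsad2 (chr12:26456453-26456572, minus) and Ifit1 (chr19:34640769-34640888, plus) are printed for their response elements. Ifit1 was not tested.
Isg15: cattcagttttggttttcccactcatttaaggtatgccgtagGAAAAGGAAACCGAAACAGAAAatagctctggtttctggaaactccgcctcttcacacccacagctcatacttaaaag
Rsad2: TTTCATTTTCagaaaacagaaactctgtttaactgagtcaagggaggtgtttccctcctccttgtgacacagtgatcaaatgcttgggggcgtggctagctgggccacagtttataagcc
Ifit1: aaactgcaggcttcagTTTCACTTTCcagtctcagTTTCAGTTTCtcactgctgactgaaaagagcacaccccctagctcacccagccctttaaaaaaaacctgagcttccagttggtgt

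The 11 members left untested were those with no probe well above background on all 3 arrays of a genotype. They include the whole IFIT family, whose proteins bind foreign RNA ends. Ifit1 was well above background on 2 mutant arrays and 1 wild type array, Ifit2 on 1 mutant array and 2 wild type arrays, and Ifit3 on 0 mutant arrays and 1 wild type array. Mx1, the nuclear relative of Mx2, was above background on 2 mutant arrays and 1 wild type array, with ratios of 1.45, 0.73 and 0.59. Ifi44 was above background on 2 arrays of each genotype and Sp100, a nuclear body protein, on 1 of each. The brighter probe of Cmpk2, a nucleotide kinase encoded beside Rsad2, was above background on 2 mutant arrays and 1 wild type array. For Ifit3 and the other Cmpk2 probe, dim on all mutant arrays, the bound on the wild type excess came out under 1, so no fold is given. Differences in these genes were not detectable at this signal.

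The members' ratios were closest between replicates 1 and 3 by correlation, and between replicates 2 and 3 by sign. Over the 38 members, which are no replicates of each other, Pearson's r of the ratios was 0.56 for replicates 1 and 2, 0.718 for replicates 2 and 3, and 0.824 for replicates 1 and 3. Over all tested genes the values were 0.151, 0.18 and 0.879. The members had the same sign in 26, 36 and 28 of 38 cases for those pairs of arrays, while all genes did in 51.3%, 53.1% and 84.3%. Replicates 1 and 3 share a dye orientation, and the difference between the members and all genes was not tested. The levels of 14 members were higher in every mutant sample than in every wild type sample, against 11% of all genes, and those of 2 members were lower, against 10.3%. The 14 include Oas1a, Oas2 and Zbp1, which entered the test through the mutant alone. That way in was taken by 23.7% of the members and 5.7% of all genes, so these counts describe the list and support nothing beyond it.

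**Figure D3:**
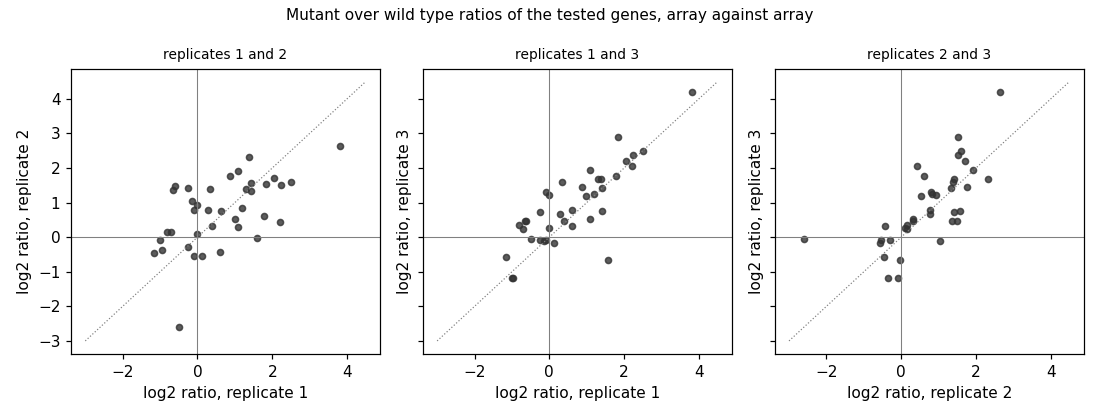
Log2 ratio of mutant over wild type for the 38 tested genes, plotted array against array, with 1 point per gene and a dotted line of equal values. Points lie closest to the line for replicates 1 and 3, and the point near −2.6 on replicate 2 is B2m.

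The genes around this set in the pathway were described from lists that hold no members. Of 18 interferon and receptor genes on the array 7 were tested, with a median of −1.01, and 0 passed the adjusted threshold in either direction. Interferon ligands were mostly too dim, and Ifnb1, Ifng, Ifna2, Ifna4 and Ifne were not well above background on any array. The 1 ligand tested, Ifna11, gave 2.81, −0.62 and 0.74. Of the receptor chains, 3 had a mean at least 2-fold lower and below 0 on all arrays, against 6.70% of all genes. Ifnar2, a chain of the type I interferon receptor, had 8.54, 8.67 and 8.69 in mutant samples and 10.88, 10.54 and 10.49 in wild type samples, a ratio of −2.01 ± 0.25 (adjusted p = 0.0543). Its partner chain Ifnar1 had 0.19. Il10rb, shared by the interferon lambda and interleukin-10 receptors, had −1.73 ± 0.33 (adjusted p = 0.0719), and the interferon gamma receptor chain Ifngr1 had −1.01 ± 0.26 (adjusted p = 0.112). These ratios have the opposite sign to those of most members.

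Among 10 tested JAK-STAT genes and inhibitors the median was −0.23, none was at least 2-fold apart with 1 sign on all arrays, and 0 were called. The phosphatase Ptpn6 had 0.57 (adjusted p = 0.244) and the feedback inhibitor Socs3 had −0.71 (adjusted p = 0.252). The 14 tested genes of sensing upstream of interferon had a median of −0.20 with 0 called. Aim2, an inflammasome sensor of cytosolic DNA, had 9.95, 8.95 and 8.45 in mutant samples and 7.80, 7.40 and 6.91 in wild type samples, with a ratio of 1.75 ± 0.26 (adjusted p = 0.0576). Irf2, which represses Irf1 targets, had −1.0 ± 0.26 (adjusted p = 0.118).

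A list of 44 further interferon-stimulated genes on the array, 33 of them tested, had a median of 0.52 and 0 calls. Of the 33, 6 were at least 2-fold higher with all ratios above 0, against 7.0% of all genes. At least 2-fold lower with all ratios below 0 was 1 gene, against 6.70%. Ube2l6, the conjugating enzyme for Isg15, had 11.71, 11.17 and 10.65 in mutant samples and 9.41, 9.24 and 8.58 in wild type samples, a ratio of 2.10 ± 0.24 (adjusted p = 0.0502). Pml, the organiser of nuclear bodies, had 12.33, 12.12 and 12.49 in mutant samples and 10.64, 10.48 and 10.87 in wild type samples, a ratio of 1.65 ± 0.23 (adjusted p = 0.0559). Both genes had separate groups and nearly equal ratios on the 3 arrays. The other 4 were Gbp4 (1.51), Parp12 (1.24), Irgm2 (1.15) and Tor3a (1.04). Other genes of these families in the list were closer to 0 or mixed in sign: Iigp1 had 0.67, Parp10 had 0.80, Gbp5 gave −0.07, 1.30 and −0.11, and Gbp6 gave 1.98, −0.24 and 1.57. Helz2, a helicase coactivator, was the lower gene with −1.39 ± 0.26 (adjusted p = 0.0719).

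**Figure D4:**
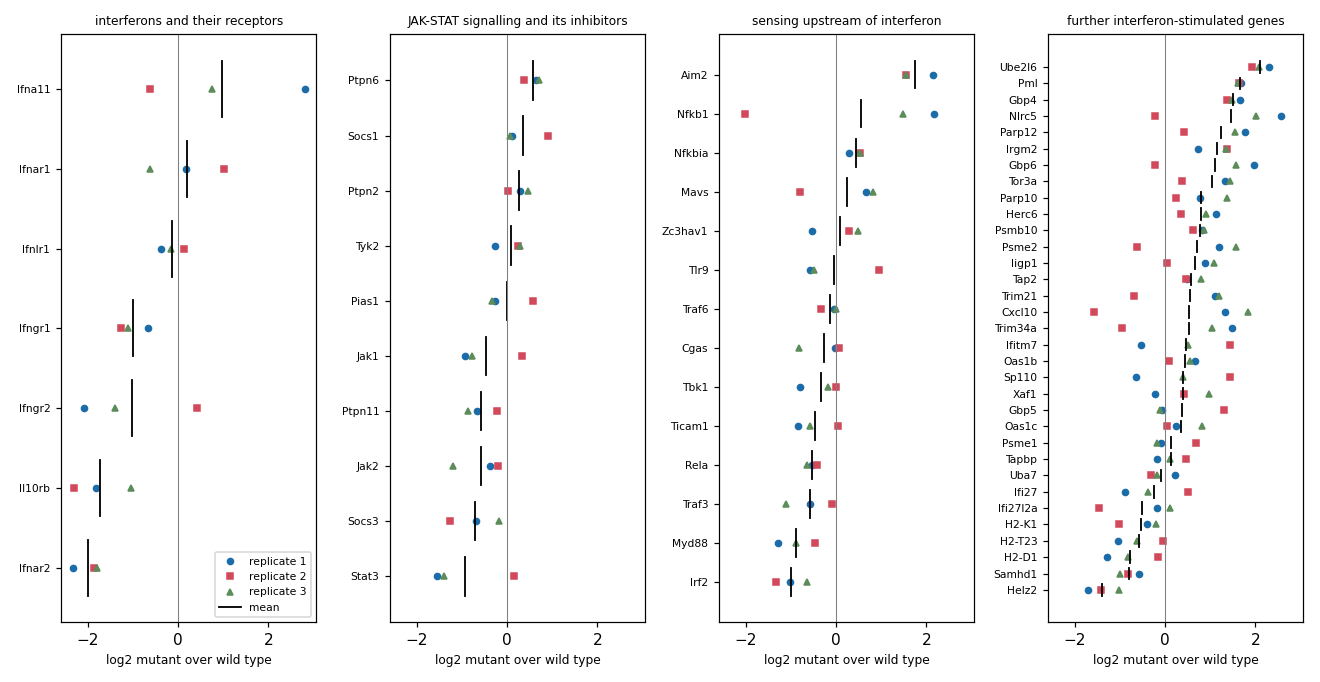
Log2 ratio of mutant over wild type for the tested genes of 4 lists around the members, with 1 symbol per array (replicate 1 circles, replicate 2 squares, replicate 3 triangles) and a bar at the mean. Ifnar2, Il10rb and Ifngr1 lie left of 0 on every array, while Ube2l6, Pml and Gbp4 lie right of it.

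Markers of other cell types were read on the same arrays. Of 12 macrophage and leukocyte markers on the array 5 were tested, with a median of −0.49, and the mean log2 signal over them was 7.93 to 9.52 in mutant samples and 8.58 to 9.59 in wild type samples. Cd68, Csf1r, Itgam and Fcgr3 were well above background on all 3 arrays of both genotypes, and Ptprc and C1qa on none. The other untested markers were above background on some arrays only. The 5 tested markers ranged from −1.20 for Fcgr3 (adjusted p = 0.126, limma) to 1.22 for Laptm5 (adjusted p = 0.0850), with Csf1r at −0.86. All 6 pluripotency markers were tested, with a median of 2.08 and a mean log2 signal of 12.30 to 13.15 in mutant samples against 10.45 to 11.13 in wild type samples. Zfp42 and Dppa5a rose in the mutant, by 3.17 and 2.67 (adjusted p = 0.0417 for each, limma). The rest of this list was not called, with 2.17 for Dppa4, 1.99 for Pou5f1 and 1.05 for Sox2. Nanog had a mean of 0.08, from ratios of 0.26, −0.30 and 0.27 on replicates 1, 2 and 3. The 7 primordial germ cell markers had a median of 2.02, a mean log2 signal of 9.78 to 10.62 in mutant samples against 8.04 to 8.77 in wild type samples, and 0 calls. For 4 tested endothelial markers the median was −0.65, and for 9 tested germ layer markers it was −2.23. Of these 9, 7 had a mean below 0, and only Hbb-bh1, an embryonic globin, was called, at −3.91 (adjusted p = 0.0417, limma). Sox1 had −4.04, Gata6 −2.80 and Sox17 −2.60. The 2 means above 0 were those of the cardiac myosin gene Myh6 at 1.81 (adjusted p = 0.0716) and of Tnnt2 at 0.19. Tnnt2, also cardiac, was mixed in sign, with 0.58, 0.66 and −0.67. The part of these cell types in the values of the interferon-stimulated genes was not tested.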

How the data were processed

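Data of 3 two-colour arrays, each with a mutant and a wild type sample, were taken from the deposited scanner files. Per the file headers, Agilent Feature Extraction 10.7.3.1 gave unnormalized mean and local background intensity values for each dye, and probe positions are on mm9. The authors' deposited table holds log2 ratios and served as an alternative. Set against the scanner values its columns run as mutant over wild type, with medians of −0.04, 0.01 and −0.01, and its centring stays unknown. Its columns for replicates 1 and 3 each correlated more with the other's array, at 0.775 and 0.815, than with their own, at 0.62 and 0.715, which leaves the mean ratio as it is. The submitters' processing notes name limma without a version. Flag columns (other) per the file headers mark spots well above background or outlying.

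With R 4.3.3 and limma 3.58.1, intensities were corrected by normexp (offset 50) and loess within arrays. On replicate 3, 7 spots of extreme background took the array's median and were left out. Spots were averaged per probe, and a probe was kept if all 3 arrays of a genotype flagged it well above background (19140 of 39429), with the brightest per gene. A two-sided limma fit (lmFit, eBayes) compared mutant over wild type ratios with 0, adjusted by Benjamini-Hochberg at 0.05. Channel levels followed loess and Aquantile. Where a probe was dim on all arrays of a genotype, only a bound was computed, which is open to dye bias. The fit is paired by array: channel deviations correlated at 0.515, 0.016 and 0.462 on replicates 1, 2 and 3. The script was tested on simulated data. Symbols of other genes were updated from RefSeq GRCm38.p6, for 26761 probes matched. Named genes are all members, with levels for the 12 of smallest p and those at least 2-fold apart with 1 sign, plus the same from pathway lists. Members and lists were chosen with earlier results of these data known.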

Additional observations from a re-analysis of the deposited data

How the results depend on the processing

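No member was called in the fit used here, and the count of calls depended on the processing. The replicate block is the pairing by array: with no replicate block, 3 members were higher (Ifitm3, Irf1 and Oasl2) with 179 genes higher and 96 lower, against 32 and 14 with it. Agilent's processed signals gave 261 and 168 genes, 5 members higher (Gbp3, Irf1, Irgm1, Oasl2 and Zbp1) and a members' median of 1.09. A dye term gave 2449 and 2300 genes and 18 members higher and 3 lower. Scaling between arrays gave 63 and 46 genes and averaging over probes 67 and 36, with 1 member higher in each (Oasl2). Median centring gave 4 and 3 genes, a members' median of 0.49 and an all-gene median of −0.22 against 0.03. With all spots in the background model there were 0 calls by limma in either direction, 1684 genes at an unadjusted p under 0.05, and a members' median of 0.47. With the authors' deposited table there were 0 calls by limma, 3057 genes at an unadjusted p under 0.05, and a median of 0.36. No filter on dim probes gave 1 and 1 genes and a median of 0.45 over 49 members, and requiring both genotypes above background gave 3 and 1 genes and a median of 1.17 over 26. Leaving out 1 replicate gave 3 to 3963 genes higher and 2 to 3345 lower, 0 to 17 members higher and 0 to 3 lower, and medians of 0.61 to 0.94. The share of calls that were higher was 69.6%, against 75% with both genotypes above background, 65.1% with no replicate block, 65% with averaging over probes, 60.8% with processed signals, 57.8% with scaling, 57.1% with median centring, 51.6% with the dye term, 50% without a filter, and 50% to 60% with 1 replicate left out. The sign turned for 8 members, whose ratios in the fit used here ran from −0.107 for Usp18 to 0.635 for Adar. Leaving out 1 replicate gave −0.0569 to 0.459 for Ifih1, −0.34 to 0.774 for Mx2, −0.328 to 0.249 for Rsad2, −0.131 to 0.468 for Isg15, −0.278 to 0.188 for Usp18, −0.103 to 0.902 for Ifitm2 and −0.0723 to 0.979 for Trim25. Processed signals gave −0.0149 for Ifih1, −0.0447 for Mx2 and 0.0789 for Rsad2, median centring −0.0426 for Ifih1 and −0.0723 for Isg15, and averaging over probes −0.187 for Adar. Of the single-member values, 418 kept sign and side of the threshold and 51 passed it with the same sign. The cause of these shifts was not tested, and the 3 arrays and probes near background limit what can be called.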
